A study of Mus musculus with 22 samples.

Results

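The arrays described here are comparative genomic hybridisations of thymocyte DNA from Atm-deficient mice whose thymus was recorded as free of macroscopic findings. Of 22 arrays in the series, 14 carry that title and the other 8 come from mice with a thymic lymphoma. The 14 were divided by their own copy number. An array entered the first set when the median log2 ratio was at least 0.25 between 40 and 47 Mb of chromosome 14, or at most -0.25 between 114 and 118 Mb of chromosome 12. The members were selected on these 2 medians alone: 4 arrays entered (mice 2, 9, 11 and 14, numbered in the order of the records) and 10 did not. These sets are not the study's groups, and they were drawn on the measured values, so everything on chromosomes 12 and 14 is given below as a description without a test. Both windows were chosen with the lymphoma profiles known.

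Every array compared Cy5-labelled DNA of an Atm-deficient mouse with Cy3-labelled DNA of wildtype thymocytes, so a positive log2 ratio means more DNA in the Atm-deficient sample. The mice had received no treatment. Each title has its own mouse number, so each array was taken as 1 mouse. The labels give neither the strain, the age, the sex, nor the part of Atm that was altered, and they do not say whether the wildtype DNA was a pool or a single animal. A ratio is an average over all cells of the sample: a change of few copies in most cells and a larger change in fewer cells cannot be told apart.

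Atm is a protein kinase activated by DNA double-strand breaks, and it holds broken ends together while they are joined. Developing T cells make such breaks on purpose when the RAG recombinase rearranges the T-cell receptor genes: Tcrb and Tcrg early, and Tcra with the nested Tcrd later. Igh, the immunoglobulin heavy chain locus near the end of chromosome 12, is the B-cell counterpart and can undergo partial rearrangement in T cells. Thymocytes that lack Atm leave receptor breaks unrepaired more often, and thymic lymphomas of such mice are known for translocations that involve Tcra/Tcrd on chromosome 14 and the end of chromosome 12.

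Of the 12 Atm probes, the probe whose median over all arrays lay farthest from zero is shown. It differed from zero in most arrays. The labels do not say which part of Atm was altered, so this probe cannot verify the genotype of an array. It lies at chr9:53461029-53461088. Genome positions are as the array files give them, and the genome build behind them is not given in these sources.
Atm probe: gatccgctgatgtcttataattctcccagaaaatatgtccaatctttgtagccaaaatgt
The log2 ratio at this probe was 1.08, 1.69, 0.99 and 0.67 in mice 2, 9, 11 and 14. In the other 10 arrays it ran from -1.08 through a median of 0.70 to 1.08, and in the lymphoma arrays from 0.95 to 1.32. The 4 arrays that met the rule therefore lay on the side of the lymphoma arrays. So did mice 7, 8, 10, 12 and 13, outside the rule, at 1.07, 0.99, 1.08, 1.06 and 0.97. The probe thus did not separate the sets. Mice 5 and 6, outside the rule, were nearest to zero, at 0.44 and 0.08. The arrays labelled mouse 1, mouse 3 and mouse 4 stood on the opposite side, at -1.08, -0.72 and -0.63. All 3 were scanned on the same day and are called by their labels throughout, because a direction drawn from them is in doubt. Whether their dyes were exchanged was not tested.

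The other sequences shown are those of neighbouring probes between which the ratio stepped at a receptor locus or at the edge of the gain on chromosome 14. They show where the segmentation placed the change, to the spacing of the array. The gain of mouse 9 began between a probe at chr14:38702173-38702232 and the next at chr14:38791444-38791490.
Before the gain: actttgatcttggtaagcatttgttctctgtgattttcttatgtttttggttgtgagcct
First probe of the gain: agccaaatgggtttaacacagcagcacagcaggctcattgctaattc
The ratio of mouse 9 went from 0.08 to 1.36 between them, and that of mouse 11 from 0.52 to 1.10. The array labelled mouse 1 stepped down at the same probe, from -0.01 to -0.49. No probe lies between the pair, so a shared interval does not show a shared breakpoint.

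The second pair marks the end of the Tcra/Tcrd deletion in mouse 11, at chr14:49026549-49026608 and chr14:49034154-49034213.
Last probe of the deletion: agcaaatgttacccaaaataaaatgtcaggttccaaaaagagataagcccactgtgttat
First probe beyond it: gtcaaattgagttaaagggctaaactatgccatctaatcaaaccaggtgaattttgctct
Mouse 11 read -2.01 at the first and -0.27 at the second. Mouse 2 read -3.92 and -4.45, so its loss reached at least 1 probe further. The other 10 arrays had medians of -0.12 and 0.16 at these probes.

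The third pair marks the end of the lowest segment of mouse 14 in the same locus, at chr14:48994013-48994072 and chr14:48999485-48999544.
Last low probe: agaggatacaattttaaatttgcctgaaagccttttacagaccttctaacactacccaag
Next probe: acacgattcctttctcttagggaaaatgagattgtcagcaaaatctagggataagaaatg
Mouse 14 read -2.53 and then -0.58. The low value was not restricted to the arrays that met the rule: mice 7, 8, 10, 12 and 13, none of which met it, read -2.24, -2.66, -2.82, -3.25 and -2.05 at the first of these probes.

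The last pair lies inside Igh, at chr12:110953308-110953367 and chr12:110958969-110959027.
Igh, first probe: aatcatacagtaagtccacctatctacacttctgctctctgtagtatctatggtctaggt
Igh, next probe: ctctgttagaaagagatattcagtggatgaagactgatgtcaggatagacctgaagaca
Mouse 11 stepped from -0.05 to -0.62 between them. Mouse 2 already read -1.86 at the first and -3.90 at the second. The other 10 arrays had medians of 0.08 and 0.04. Single values varied: mouse 9 went from -1.12 to 0.21 with no segment end there. The arrays labelled mouse 3 and mouse 4 likewise went from -1.15 to 1.40 and from -0.59 to 0.78. The step of mouse 11 at these probes alone thus does not fix a breakpoint.

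In the chromosome 14 window, which holds 769 probes, the median log2 ratio was -0.01 in mouse 2, 0.83 in mouse 9, 1.41 in mouse 11 and 0.49 in mouse 14. Elsewhere among the 14 it ran from -0.45 through a median of 0.00 to 0.18. In the chromosome 12 window, with 428 probes, the same 4 mice read -0.44, -0.29, -0.67 and -0.21, and the other 10 ran from -0.19 through -0.01 to 0.49. Mice 9 and 11 thus met both limits, mouse 2 the chromosome 12 limit alone and mouse 14 the chromosome 14 limit alone. The arrays nearest a limit from inside were mouse 9 on chromosome 12 and mouse 14 on chromosome 14. Nearest from outside were mouse 7, at -0.19 on chromosome 12, and mouse 12, at 0.18 on chromosome 14. In the lymphoma arrays the windows ran from 1.14 to 2.39 and from -1.0 to -0.36, so the chromosome 14 gain of mouse 11 lay within the lymphoma range, and those of mice 9 and 14 lay below it.

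**Figure D1:**
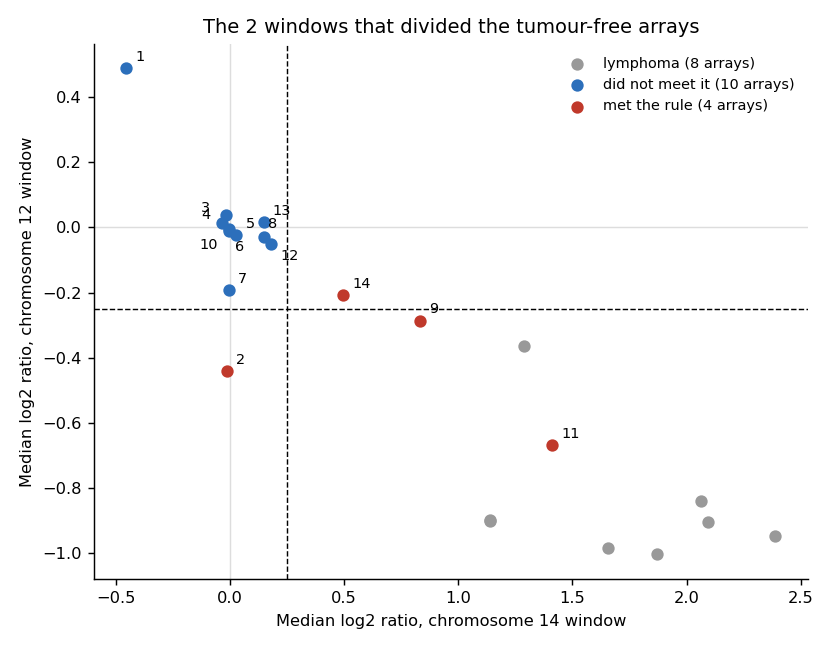
Each point is 1 array, placed by its median log2 ratio in the chromosome 14 window (horizontal) and in the chromosome 12 window (vertical); dashed lines mark the limits of 0.25 and -0.25. Mice 9, 11 and 14 lie to the right of the vertical limit, mouse 2 lies below the horizontal limit at -0.44, and the lymphoma arrays lie at 1.14 or more on the horizontal axis.

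The array labelled mouse 1 mirrored this pattern. Its windows read -0.45 on chromosome 14 and 0.49 on chromosome 12, each beyond the limit in size and opposite in sign. With the sign of the arrays labelled mouse 1, mouse 3 and mouse 4 turned, the array labelled mouse 1 met the rule and the other two did not.

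On the far side of chromosome 14 the 4 arrays had similar medians but not the same form. Beyond Tcra/Tcrd (chr14:49106107-119210680, 6175 probes) the median was -0.28, -0.29, -0.33 and -0.32 in mice 2, 9, 11 and 14. It ran from -0.10 through -0.07 to 0.45 in the other 10, so the sets did not overlap on this measure. In mouse 9 the far side was a single segment of -0.34, whereas mouse 11 stayed at 0.03 from 49034154 to 61322832 and was lost at -0.80 from 78980428 onwards. The upper end of that range is again the array labelled mouse 1. Towards the centromere from the gain window the sets were alike except for mouse 11, which read 0.28 against -0.04, 0.01 and -0.01 in mice 2, 9 and 14.

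Within the gain the profiles differed from mouse to mouse. In mouse 9 it ran from 38791444 to 48632910 (9.84 Mb, median 0.83), with a first part at 1.35 and a longer second part at 0.71. In mouse 11 it ran from 36291628 to 48623500 (12.3 Mb, median 1.31), with a summit of 2.16, or 446% of the wildtype signal, from 39806307 to 40701977. In mouse 14 it was narrower, from 39801970 to 43819008 (4.02 Mb, median 1.08), and its summit of 1.93, or 380% of wildtype, lay from 40442475 to 40984049. The summits of mice 11 and 14 therefore overlapped, and the highest segment of mouse 9, which ended at 40974529, covered that of mouse 11 and nearly all of that of mouse 14. The array labelled mouse 1 had its lowest segment, -1.90, from 39705615 to 41283089, which spans both summits. Mouse 2 had no gain there: its segments between 38.3 and 47.8 Mb stayed between -0.10 and 0.06.

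**Figure D2:**
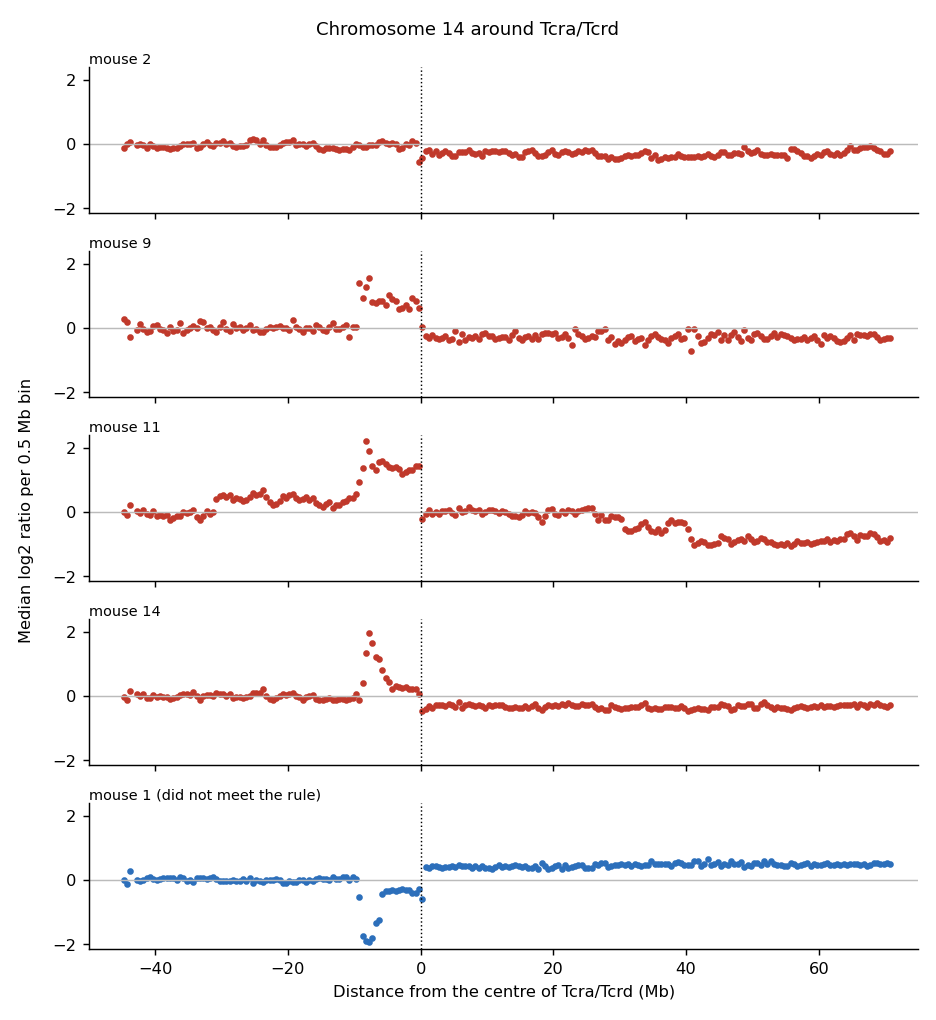
Median log2 ratio in bins of 0.5 Mb along chromosome 14, plotted against the distance in Mb from the centre of Tcra/Tcrd, for the 4 arrays that met the rule and the array labelled mouse 1. Mice 9, 11 and 14 rise to the left of the locus. To its right mice 9 and 14 fall to about -0.3, mouse 11 returns to 0.03 before its later loss, mouse 2 falls without an earlier rise, and the array labelled mouse 1 has the mirror image.

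The genes with the largest difference between the sets lay under these summits. Psmc6, an ATPase subunit of the proteasome, had gene means of 0.07, 1.39, 2.36 and 2.30 in mice 2, 9, 11 and 14, and the other 10 arrays ran from -2.03 to 0.40. Ero1a, an oxidase that forms disulphide bonds in the endoplasmic reticulum, read -0.01, 1.35, 2.11 and 2.10. Gnpnat1, an enzyme of amino sugar synthesis, Txndc16 and Styx, a phosphatase-like protein without catalytic activity, followed with differences of 1.48, 1.44 and 1.38. Mouse 2 lay between -0.18 and 0.07 in all 5. Values of -2.07 to -1.79 in the array labelled mouse 1 lowered the mean of the other 10 and so widened these differences. At the other extreme, Tgds, Klhl1, Dach1 and Gpc5 on the far side of chromosome 14 were lower by 0.52, 0.48, 0.48 and 0.47. Tcl1 on chromosome 12, known as a T-cell oncogene, read -0.27, 0.22, -0.55 and -0.92 in mice 2, 9, 11 and 14, so mouse 9 had no loss of it, and the other 10 ran from -0.55 to 0.54, which overlaps. Rb1, the retinoblastoma tumour suppressor, read -0.20, -0.38, 0.13 and -0.24, and was called lost in mice 9 and 14 alone among the 4.

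Tcra/Tcrd itself (chr14:47658042-49106106, 147 probes) carried deep focal losses in 3 of the 4 arrays. The lowest segment stood at 7.51% of the wildtype signal in mouse 2 (48999485 to 49034213, log2 ratio -3.74), 14.4% in mouse 11 (48911587 to 49026608, -2.80), 32.1% in mouse 14 (48963101 to 48994072, -1.64) and 79.2% in mouse 9. In the other 10 arrays the lowest segment ranged from 32.9% to 99.7% of wildtype. Mice 2 and 11 lay below that range, and mouse 14 lay just below its lower end in mouse 10. Mouse 9 had no focal deletion: its lowest segment was the far-side loss as a whole. In mouse 2 the deletion was broken into segments between -3.74 and -2.06 from 48762152 to 49034213. Mouse 12, outside the rule, had a raised segment of 0.41 from 47222585 to 47903623 and a low one of -0.72 from 48836980 to 49026608.

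Mouse 9 thus stood apart in this locus. It also had the second noisiest array (a spread between neighbouring probes of 0.519 on the log2 scale, against 0.149 to 0.376 in the other tumour-free arrays except those labelled mouse 3 and mouse 4, which reached 0.558 and 0.506), and whether that spread hid a short deletion was not tested.

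On chromosome 12 the losses did not begin at a common place. Mouse 11 lost the end of the chromosome from 99932139 (median -0.60 over 17.9 Mb) with an interruption: a segment of 0.15 from 110122182 to 110953367 lay at the border of Igh. Mouse 14 had a loss of -0.29 from 98702768 to 110008853, with short segments of -1.36 and -1.18 inside it, and -0.25 from there to the end. Mouse 7, outside the rule, was lowered too, at -0.24 from 87926734 to 102272315 and at -0.21 from 110011960 to the end. In mouse 9 a single segment of -0.23 ran from 105483764 to the end. That start lies within Bcl11b (probes from 105441816 to 105520687), a transcription factor needed for T-cell commitment and a tumour suppressor in mouse thymus. Its gene mean was -0.21, -0.21, -0.54 and -0.48 in mice 2, 9, 11 and 14. The other 10 arrays ran from -0.37 in mouse 7 through 0.04 to 0.39 in the array labelled mouse 1, so the sets overlapped. Between Bcl11b and Igh mouse 2 was raised, at a median of 0.40, while mice 9, 11 and 14 read -0.13, -0.49 and -0.28.

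Mouse 2 carried the most complex chromosome 12. Its gains longer than 3 Mb had medians of 0.29 to 0.43 and began at 49289542. The longest, of 19.6 Mb at 0.42, began at 66293420. Shorter gains lay before these, the first from 3013769 to 5309432 at 0.30. From the start of the chromosome to Bcl11b its median was 0.26, where the other 10 arrays ran from -0.02 to 0.01. A loss of -0.35 lay from 101318909 to 104623188. The gain rose to 1.33 from 109645717 to 110691898, just before Igh. Inside Igh the signal then fell to between -4.17 and -3.70 from 110953308 to 111125518, 5.55% of wildtype at the lowest, and the whole stretch from there to the end of the chromosome had a median of -0.45. The lowest Igh segment of mice 11, 14 and 9 was 61.9%, 84.2% and 85.1% of wildtype, so a near-complete focal deletion of Igh occurred in mouse 2 alone among the 4. Mice 5 and 6, outside the rule, each had a short low segment in Igh at 32.7% and 34% of wildtype, both beginning at 112554587.

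**Figure D3:**
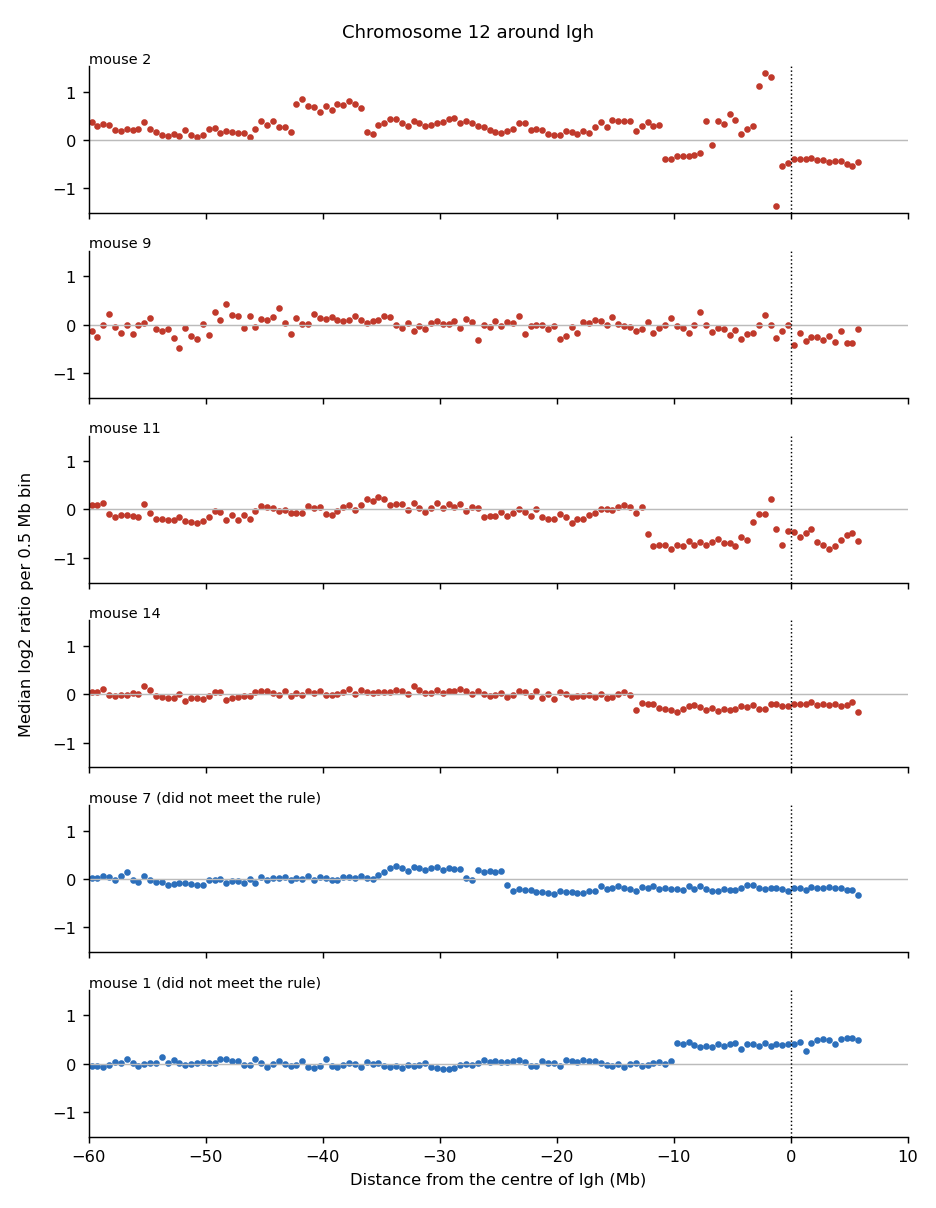
Median log2 ratio in bins of 0.5 Mb along chromosome 12, plotted against the distance in Mb from the centre of Igh, for the 4 arrays that met the rule, mouse 7 and the array labelled mouse 1. After Igh mice 2, 9, 11 and 14 lie below zero, and so does mouse 7, outside the rule, at -0.19 in the chromosome 12 window. Directly before Igh mice 7 and 14 are lowered, and mice 9 and 11 are near zero or slightly raised (0.023 and 0.077 over 1 Mb). Mouse 2 is raised to 1.33 there, and the array labelled mouse 1 is raised.

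Away from chromosomes 12 and 14, which the rule did not use, the 4 arrays held more altered DNA than the other 10. Segments with a mean of 0.25 or more in size covered 114, 35.1, 307 and 58.4 Mb in mice 2, 9, 11 and 14. Among the other 10 it was between 0.253 and 47.0 Mb, with a median of 1.87 Mb. Mice 2, 11 and 14 lay above all of the other 10, and mouse 9 lay within their range. The means were 129 ± 123 Mb (SD, n = 4) and 14.3 ± 20.3 Mb (SD, n = 10), a difference of 114 Mb. An exact two-sided permutation test over all divisions of the 14 arrays into 4 and 10 gave p = 0.00400, or 0.0312 after Benjamini-Hochberg adjustment over the 25 values tested this way. Without mouse 2 or without mouse 11 the adjusted p rose to 0.0874 and 0.146, and the difference without mouse 11 was 55.1 Mb.

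Scan day moved with the sets: mice 11 and 14 were scanned with mouse 7, mouse 9 with mice 8, 10 and 12, and mouse 2 with none of the others. Within the first of these days the altered DNA was 183 Mb on average against 44.3 Mb, and within the second 35.1 Mb against 0.663 Mb. With scan day as a block the difference was 83.3 Mb and p = 0.417 in the exact permutation test (adjusted p = 0.744), where only 12 divisions were possible and the smallest p was 0.0833. With background correction by the normexp method the difference was 63.8 Mb and the exact permutation test gave an adjusted p of 0.111.

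Gains made up most of this DNA in mice 2 and 11 (92.8 and 286 Mb), and losses exceeded gains in mouse 9 (27.1 against 8.01 Mb) and mouse 14 (35.1 against 23.4 Mb). Lost DNA was similar in all 4, between 20.9 and 35.1 Mb, with a mean of 26.2 ± 6.53 Mb (SD, n = 4). The other 10 arrays lost 4.25 ± 7.97 Mb (SD, n = 10), ranging up to 24.2 Mb in mouse 5. The difference of 21.9 Mb passed (exact permutation test, p = 0.00300, adjusted p = 0.0312), though mice 2 and 11 lay inside the range of the other 10. With scan day as a block the difference was 21.3 Mb with p = 0.0833, the smallest possible there, and the adjusted p was 0.694 in the exact permutation test. Gained DNA differed by 92.5 Mb with an adjusted p of 0.0749 in the same exact test, and the number of called segments, 80.5 ± 63.1 against 24.7 ± 35.5, gave an adjusted p of 0.0941. Neither passed. Segment numbers differed widely within the 4: mouse 9 had its 35.1 Mb in 5 segments and mouse 2 its 114 Mb in 157.

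**Figure D4:**
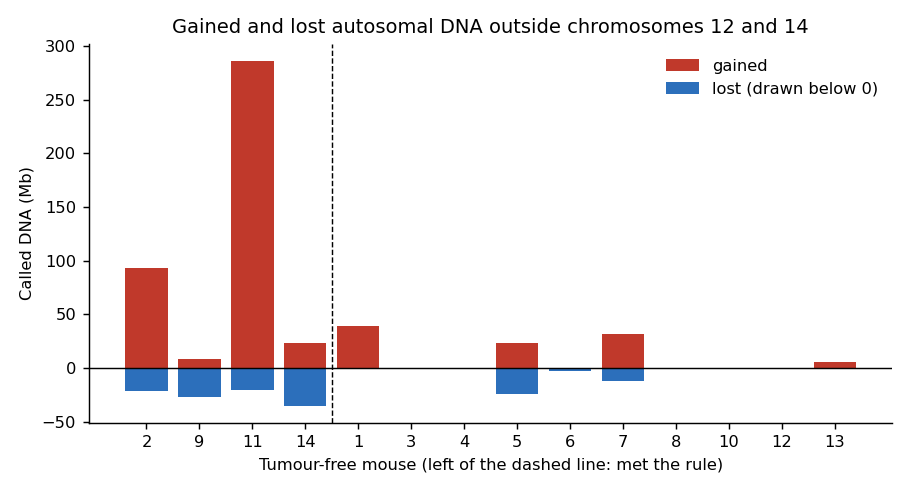
Bars give the gained and lost autosomal DNA in Mb, outside chromosomes 12 and 14, of each of the 14 arrays; those left of the dashed line met the rule. Mouse 11 is highest with 286 Mb gained, mouse 2 follows with 92.8 Mb, and 7 of the 10 arrays on the right show at most 6.16 Mb in all.

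The longest altered stretches are described next. The distal end of chromosome 1 was gained in mouse 2 (131854973 to 194916389, 63.1 Mb, median 0.55) and in mouse 11 (104072122 to 193779168, 89.7 Mb, 0.69), and the other 10 arrays lay between -0.03 and 0.01 over the stretch of mouse 2. Among its genes are Ncstn, whose product is part of the protease that frees active Notch, and Cd247, the zeta chain of the T-cell receptor complex. Over the same stretch 4 of the 8 lymphoma arrays were at 0.25 or more.

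Mouse 11 gained chromosome 15 nearly whole (96.0 Mb, median 0.48). Mouse 14 gained a 10.2 Mb part of it, from 57632928 to 67832051, at 0.30. This part spans Myc, the transcription factor amplified in many T-cell tumours, but only 1 probe lies in Myc, and it read -0.39 in mouse 11 and -0.60 in mouse 14, against the stretch around it. The chromosome median was 0.00, 0.15, 0.47 and 0.21 in mice 2, 9, 11 and 14. Mouse 7, outside the rule, was at 0.17, and the remaining 9 arrays ran from -0.05 to 0.02. The sets thus overlapped through mouse 2 and mouse 7. The mean difference of 0.19 had an adjusted p of 0.0624 in the exact permutation test and did not pass. In the lymphoma arrays 7 of 8 reached 0.25 over the stretch gained in mouse 11.

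Chromosome 4 was gained in 5 separate stretches of mouse 11 at 0.28 to 0.32, 1 of them with Jak1, a cytokine receptor kinase, and 1 with Lck, the kinase that starts T-cell receptor signalling. In mouse 9 a single stretch of 8.01 Mb on chromosome 4 (117644867 to 125659085) stood at 1.24, or 2.37 times the wildtype signal. It lay among the losses of that mouse as its only large gain outside chromosome 14. No other array that met the rule reached 0.25 there, the other 10 lay between -0.02 and 0.03, and 1 lymphoma array reached 0.33. The same chromosome carried a local excess in mouse 2: over chr4:111458080-111982744, which holds genes of the Skint family, known from the thymic selection of gamma-delta T cells, its median was 4.82. In mice 5 and 6, outside the rule, the same place was at -1.73 and -1.50, and mice 9, 11 and 14 read -0.52, -0.39 and -0.41. In all, 3 of the 4 and 5 of the other 10 were past -0.25, and lymphoma arrays were called lost there too.

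Mouse 11 had further gains over whose full length none of the other 13 arrays reached 0.25: 28.9 Mb of chromosome 2 at 0.37, with Notch1, the receptor whose signal commits precursors to T cells, and Gata3, a T-lineage transcription factor, and 30.5 Mb of chromosome 5 at 0.44, with Brca2, a homologous recombination factor. At Notch1 itself mouse 2 was also called gained. Over the full stretches 2 and 1 of the 8 lymphoma arrays reached 0.25.

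The long losses of the 4 arrays outside chromosomes 12 and 14 lay on chromosomes 4, 8, 9, 11 and 16. Chromosome 11 was lost in mouse 2 from 3152146 to 6478113 at -0.85 and from 6527756 to 21031097 at -1.0, and in mouse 11 from 9006321 to 19869401 at -0.49. These losses surround Ikzf1, the Ikaros transcription factor and a tumour suppressor of T cells: its 11 probes averaged -0.77 in mouse 2 but 0.04 in mouse 11. The array labelled mouse 1 was gained in the same place (3078911 to 19762441, 0.39). No lymphoma array was at -0.25 or below over any of these chromosome 11 losses. Chromosome 8 was lost in mouse 9 from 3389722 to 26769465 at a median of -0.22, where the array labelled mouse 1 was gained from 3011640 to 24828901 at 0.42. Chromosome 16 was lost in mouse 11 from 5138889 to 12665788 at -0.34.

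Mouse 14 lost chromosome 9 from 36498727 to 59830904 at -0.28. This stretch holds Atm itself, whose 12 probes averaged -0.12 in mouse 14 and 0.20, 0.10 and 0.19 in mice 2, 9 and 11. It also holds Cd3e, Cd3g and Cd3d, the CD3 chains of the T-cell receptor complex, at -0.87, -0.59 and -0.36. Chek1, a checkpoint kinase, stood at -0.26. The CD3 means rest on 3, 2 and 1 probes. Cd3e also read -0.47 in mouse 7 and -0.29 in mouse 11, whereas their Cd3g and Cd3d lay between -0.13 and 0.10. Before the lost stretch of mouse 14 lay gains of 0.56 from 5558291 to 13112226 and 0.53 from 31085085 to 36470167. Mouse 7, outside the rule and scanned on the same day, was gained over the same 2 stretches, at 0.40 and 0.80, and was not lost beyond them. Over the chromosome 9 loss of mouse 14, the lymphoma arrays lay between -0.02 and 0.02.

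Mouse 14 and mouse 7 were alike beyond chromosome 9. Their log2 ratios correlated with r = 0.82 over all probes, where the median of the 91 pairs of arrays was 0.14. They shared 92 segment ends within 2 probes, which is 29.2% of the ends in mouse 7 and 38.0% of those in mouse 14, against a median of 6.27% over the pairs. On chromosome 12 both had a segment from 109964786 to 110008853, at -0.81 in mouse 7 and -1.18 in mouse 14. Mouse 7 was just outside the rule, at -0.19 on chromosome 12. Mouse 9 and the arrays labelled mouse 3 and mouse 4 formed a second such set, with r = 0.82, 0.87 and 0.86. At the other end, 5 of the 91 pairs were below -0.3: mouse 12 against mouse 9 and the arrays labelled mouse 3 and mouse 4 (-0.40, -0.36 and -0.42), and the array labelled mouse 4 against mice 11 and 14 (-0.34 and -0.32). The labels put the same dye on the Atm-deficient DNA of all of them. These coefficients share the wildtype channel, the probe set and the scan day in part, and they carry no test.

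Of the 17 autosome medians tested, chromosomes 6 and 8 passed, both lower in the 4 arrays. Chromosome 8 had a median of -0.0019, -0.0092, -0.062 and -0.0175 in mice 2, 9, 11 and 14, and the other 10 arrays ran from -0.0079 through 0.0036 to 0.0392. Mouse 2 lay within that range and the other 3 below it. The mean difference was -0.028 (exact permutation test, p = 0.00200, adjusted p = 0.0312). Chromosome 6 had -0.0222, -0.0060, -0.0609 and -0.0115, against -0.0087 to -0.0015, a difference of -0.020 (exact permutation test, p = 0.00500, adjusted p = 0.0312). Both differences are far smaller than the 0.25 used to call a segment. Each array was centred on its median, which large gains move: with arrays centred on the mode instead, neither passed, with an adjusted p of 0.845 for each in the exact permutation test. With scan day as a block neither passed (adjusted p = 0.810 and 0.694, exact permutation test), and without mouse 2 or mouse 11 no autosome passed either. Chromosomes 1 and 4 were higher on average by 0.10 and 0.061, with adjusted p = 0.0749 and 0.0624 by the exact permutation test, and chromosome 3 was lower by 0.021 with 0.0941, so none of these passed.

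**Figure D5:**
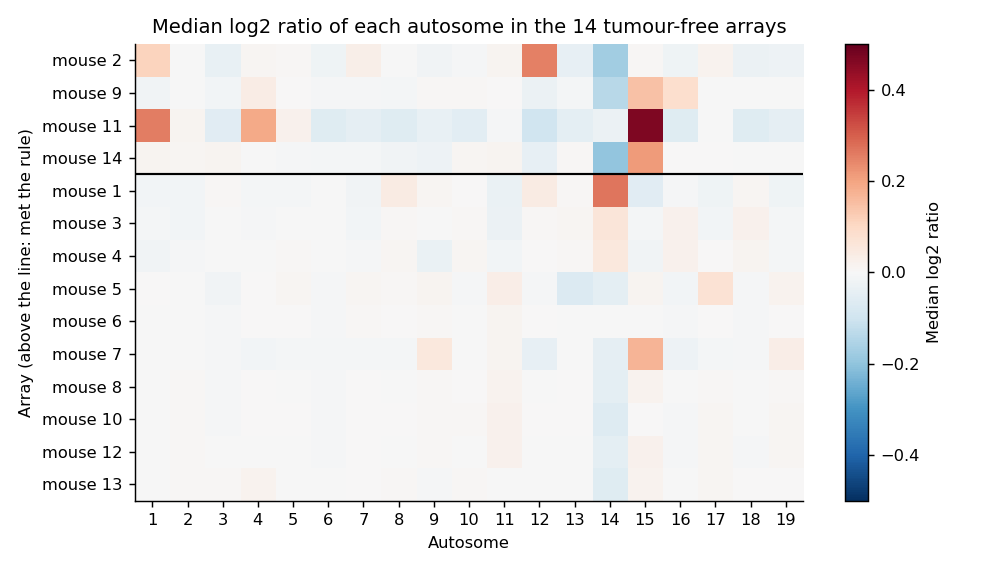
Colour gives the median log2 ratio of each of the 19 autosomes (columns) in each of the 14 arrays (rows); the rows above the line met the rule. Mouse 11 is raised on chromosomes 1, 4 and 15 (0.26, 0.19 and 0.47), mouse 14 and mouse 9 on chromosome 15 (0.21 and 0.15), and most of the other rows stay near zero.

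The receptor loci outside chromosomes 12 and 14 did not separate the sets. Each was taken as the locus median minus the median of 1 Mb on both sides. At Tcrb (chr6:40815410-41541122, 97 probes), the T-cell receptor beta locus, the value was 0.17, -0.43, -0.27 and -0.17 in mice 2, 9, 11 and 14. The other 10 arrays ran from -0.49 through -0.24 to 0.44. The difference of means was 0.0072, with p = 0.974 and adjusted p = 0.996 in the exact permutation test. Tcrb values also moved with scan day: all 8 arrays of the last 3 scan days lay between -0.49 and -0.17, and the 6 of the first 3 days between -0.13 and 0.44. Whether the day set these values was not tested.

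Tcrg (chr13:18518097-18733223, 20 probes), the gamma locus, read 0.12, -0.16, -0.051 and 0.0059 in the 4 mice and from -0.25 through -0.12 to 0.40 in the other 10 (adjusted p = 0.996, exact permutation test). Igk (chr6:67516358-70784020, 232 probes), the immunoglobulin kappa locus, which is rearranged in B cells, read -0.19, -0.17, -0.20 and -0.11. The other 10 arrays ran from -0.20 through -0.079 to 0.062. Igk was the only of the 3 loci with an unadjusted p under 0.05 (difference -0.10, p = 0.0490, adjusted p = 0.0941, exact permutation test), and it did not pass. It passed when the arrays labelled mouse 1, mouse 3 and mouse 4 were left out (-0.12, adjusted p = 0.0379, exact permutation test). Receptor rearrangement removes the DNA between joined segments. The wildtype reference was also thymocyte DNA, so a lowered signal at Tcrb or within Tcra/Tcrd means less DNA than in wildtype thymocytes. It does not show which cells were sampled. Such a lowered signal was present in arrays of both sets. Taken as locus minus flanks, mice 5 and 6 read -0.13 and -0.11 at Tcrb and -0.017 and 0.011 at Tcra/Tcrd. Mouse 5 nevertheless had a segment of -0.35 within Tcrb and another of 0.44 within Tcra/Tcrd. The array labelled mouse 3 read 0.11 at Tcrb and -0.22 at Tcra/Tcrd.

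No single gene passed. Over the 11958 genes with at least 3 probes on the other autosomes, limma called 0 genes at an adjusted p under 0.05 in either direction (0%), with a smallest adjusted p of 0.330. At an unadjusted p under 0.05 there were 798 higher and 212 lower genes. With array weights limma called 222 genes, 209 of them higher, and without mouse 14 it called 79.

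The genes gained or lost differed between mice. Of 22719 genes outside chromosomes 12 and 14, 3885 lay in a gain of at least 1 of the 4 arrays, and 3770 of these were gained in none of the other 10. Gains of at least 2 arrays held 838 genes, of which 834 were gained in none of the other 10. The lack of overlap was thus not particular to genes gained in at least 2 arrays. None was gained in 3. Losses covered 1231 genes in at least 1 array, of which 1150 were lost in none of the other 10. They covered 58 in at least 2 arrays, of which 48 were lost in none of the other 10, and 9 in 3. Each of these 9 was also lost in an array outside the rule.

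Among 22 T-cell leukaemia oncogenes, all were measured and 14 could be tested. None passed in limma (6 had an unadjusted p under 0.05, where 1010 of the 11958 genes did). Their median difference was 0.11 against 0.010 over all genes tested. Notch1 had gene means of 0.49, -0.25, 0.67 and 0.14 in mice 2, 9, 11 and 14, and the other 10 arrays ran from -0.24 through 0.00 to 0.21. Mice 2 and 11 lay above them and mouse 9 below, so the 4 mice did not move together (difference 0.29, SE 0.13, limma adjusted p = 0.576). Ncstn read 0.64, 0.25, 0.99 and -0.07, against an upper end of 0.43 in the other 10, and lies in the chromosome 1 gain of mice 2 and 11. Il7r, the interleukin-7 receptor on chromosome 15, read 0.22, 0.06, 0.69 and 0.23 against -0.21 to 0.19. Lck and Jak1 were highest in mouse 11, at 0.34 and 0.47. Jak3, a partner of Jak1, was lowest in mouse 14 at -1.20, and mouse 7 was at -1.0.

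Of 22 tumour suppressors 19 were measured and 16 tested, and 0 passed in limma, where 0 also had an unadjusted p under 0.05. Their median difference was 0.012. Apart from Ikzf1, Rb1 and Bcl11b above, Cdkn2a, the locus of the cell-cycle inhibitor p16 and of Arf, stood between -0.03 and 0.16 in the 4 mice, while mouse 7 outside the rule was at -0.51 within a loss of 7.64 Mb. Trp53, the p53 gene, stood between -0.02 and 0.21.

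Of 20 T-lineage genes 19 were measured and 13 tested; none passed in limma (0 at an unadjusted p under 0.05), with a median difference of 0.071. Cd247 read 0.75, -0.26, 0.87 and -0.12, again following chromosome 1. Gata3 stood at 0.63 in mouse 11 and was called gained there only, though its mean reached 0.37 in mouse 12. Of 21 genes of double-strand break repair 19 were measured and 17 tested; none passed in limma (2 at an unadjusted p under 0.05, again beside 1010 of 11958), with a median difference of 0.054. Xrcc6, which encodes Ku70, the protein that binds broken ends first, read 0.18, 0.30, 0.70 and 0.37 against -0.15 to 0.24 in the other 10, and lies on chromosome 15. Mice 9, 11 and 14 were above the range. Brca2 was raised in mouse 11, at 0.56.

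Counted by called segments, the share of list genes was close to that of all genes in mice 2, 9 and 11. In mouse 11, 11 of the 76 list genes outside chromosomes 12 and 14 were gained (14.5%), where 14.9% of all genes were, and none was lost, where 0.286% were. In mouse 2, 4 were gained (5.26% against 4.69%), and Ikzf1 was lost (1.32% against 0.726%). In mouse 9 none was gained (0% against 0.55%), and Lig4, the ligase of end joining, was lost (1.32% against 1.51%). Its 1 probe read -1.04, where the lost stretch had a median of -0.22. That probe also read -0.55 and -0.65 in the arrays labelled mouse 3 and mouse 4, where no list gene was called lost. In the remaining tumour-free arrays it lay between -0.09 and 0.21. In mouse 14 Myc alone was gained (1.32% against 0.695%), and 8 were lost (10.5% against 3.2%). Of these 8, 6 lie together on chromosome 9, in a single lost stretch.

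Regions gained in at least 3 of the 8 lymphoma arrays, outside chromosomes 12 and 14, held 13374 probes, where all autosomes held 220065. Chromosome 15 held 9142 of the 13374 and the distal part of chromosome 1 held 3941. The shares that follow therefore mostly restate the gains of those chromosomes given above. Mouse 11 had 95.7% of the 13374 probes called as gained, mouse 2 30.9%, mouse 14 6.50% and mouse 9 none. In the other 10 arrays the share of gained probes was 0 apart from 0.127% in mouse 13. Turned the other way, these regions made up 47.7%, 46.7% and 47.2% of the gained probes of mice 2, 11 and 14. The distal part of chromosome 1 (156696420 to 194916389) stood at 0.55 in mouse 2 and 0.78 in mouse 11, with -0.01 and 0.05 in mice 9 and 14. A 0.787 Mb region around Notch1 stood at 0.40 in mouse 11 and at 0.10, 0.10 and 0.05 in mice 2, 9 and 14. Mouse 9, gained in the chromosome 14 window, had no called segment in these regions, though its median was 0.29 in a 0.357 Mb region of chromosome 4 and 0.15 on chromosome 15. Regions lost in at least 3 lymphoma arrays were far smaller, with 151 probes, and showed no such split. Of these probes, 3.31%, 31.1%, 33.1% and 53.6% were called lost in mice 2, 9, 11 and 14, and between 0 and 74.2% in the other 10.

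Across 2157 windows of 1 Mb outside chromosomes 12 and 14, the profile of mouse 11 had a correlation of 0.75 with the mean of the lymphoma arrays, and mice 14, 2 and 9 had 0.53, 0.47 and 0.36. Mice 8, 13, 10, 12 and 7, outside the rule, had 0.58, 0.56, 0.54, 0.50 and 0.46, so on this measure only mouse 11 stood above all of the others. These arrays share probe behaviour and a labelled dye orientation. The array labelled mouse 1 had -0.40.

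Arrays outside the rule were not free of large changes. Mouse 5 lost 20.8 Mb of chromosome 13 at -0.60 and gained 22.7 Mb of chromosome 17 at 0.41. Mouse 7 gained chromosome 9 from its start to 34873157 in 2 adjoining stretches at 0.41 and 0.49 and lost the Cdkn2a stretch of chromosome 4 at -0.46. In the array labelled mouse 1, 39.2 Mb were altered outside chromosomes 12 and 14, in the stretches of chromosomes 8 and 11 given above. The remaining 7, the arrays labelled mouse 3 and mouse 4 and mice 6, 8, 10, 12 and 13, had at most 6.16 Mb altered outside chromosomes 12 and 14.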

How the data were processed

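Genomic DNA was hybridised to a mouse 244A oligonucleotide array with 2 dyes, and images were quantified with Agilent Feature Extraction 9.1.3.1 (protocol CGH-v4_91), per the file headers, or 9.1, per the submitters' processing notes. The authors deposited processed intensity signals of both channels, already background-subtracted and dye-normalized by that software, together with a log10 ratio of red over green. Of 238202 spots, 235402 probes resulted after averaging, and 220065 were autosomal, with a median spacing of 7850 bp. Between 3 and 111 spots per array were dropped as outliers. Median signals were 146 to 226 (green) and 146 to 397 (red), and precision is limited by how many arrays there were. From the processed signals the log2 ratio of red over green was taken and centred on each array's autosomal median, without loess. The mean signals were not used here, so the normexp alternative (offset 50) started from median spot and background signals.

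Segments came from optimal partitioning (penalty 3, at least 5 probes, values limited to 4 noise SD around a running median of 7 probes). They were called at 0.25 in size, which is 84.1% of wildtype for a loss. Receptor loci and segments that 11 or more of the 22 arrays shared were not counted. Stretches joined called segments, with at least 50% of their length called and 20 probes. The sets were compared by exact permutation of array labels, with Benjamini-Hochberg adjustment over 25 values. Genes (means of at least 3 probes) were compared by limma 3.58.1 in R 4.3.3. Other steps used Python 3.11.15, numpy 2.4.6, pandas 2.3.3, scipy 1.17.1 and numba 0.67.0. The fits were tested on simulated data. Scan day comes from the file headers and is not a day of extraction.

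The arrays, the windows, the gene lists and the genes to be named (list members, and any passing limma) were chosen with earlier results of these data known. Of 25705 gene names, 12155 were current symbols, 3590 were updated from synonyms, 1 by accession and 9959 kept as in the files. Nothing says that the mice were littermates or kept apart, so p-values measure the spread between these arrays. Mdc1, Atr, Cd8a, Tcf3, Cdkn2b and Cdkn1b had no probe by name. The alternatives tried were other centring, background correction, the deposited log10 ratio, filters, scan day, sign turns, other limits and leaving out arrays. Some members of the gene lists are counted but not reported here by name.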

Additional observations from a re-analysis of the deposited data

Results flagged for a closer look

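In 6 of 34 sets of values examined, 1 array lay farther from its neighbour than Dixon's criterion allows, and chance flags about 1 in 20. All 6 lie among the 10 arrays that did not meet the rule. The array labelled mouse 1 accounts for 3 of them: the lowest chromosome 14 window (-0.45, the next being -0.03), the highest chromosome 12 window (0.49, the next 0.037) and the highest chromosome 8 median (0.039, the next 0.0080). It is also the array with the lowest Atm probe, and its direction is in doubt. The rule itself bounded both windows, so the rate of 1 in 20 does not hold for them. Their flags are a description without a test. Mouse 7 had the highest chromosome 15 median, 0.17, where the next array was at 0.023. Mouse 5 had the most lost DNA outside chromosomes 12 and 14, 24.2 Mb against 12.5 Mb in the next array, most of it the loss on chromosome 13. Mouse 10 had a chromosome X median of 0.93, and the next of these arrays was at 0.030. Its chromosome Y median was -3.95, the lowest of the tumour-free arrays. The labels do not give the sex, and whether it differed from that of the reference was not tested. Among the 4 arrays that met the rule, mouse 2 had a chromosome X median of -0.41, which was not flagged. Mice 9, 11 and 14 read -0.04, -0.14 and -0.04 there.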

How the results depend on the processing

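No paired analysis was possible because every array has a mouse number of its own and no numbers are shared between the sets. The number of autosomes that passed, 2, became 0 with centring on the mode, 0 with scan day as a block, 0 without mice 7 and 14 together (chosen after seeing the data), 4 with normexp, 5 without mouse 9 and the arrays labelled mouse 3 and mouse 4, and 1 with the 3 arrays of opposite Atm probe turned and the rule applied again. Leaving out 1 array at a time gave 0 to 4. Receptor loci passing, 0, became 1 with the sign of mouse 9 and the arrays labelled mouse 3 and mouse 4 turned (Tcrg, 0.23, adjusted p = 0.050 in the exact permutation test), 1 without these 3, and 1 without the 3 of opposite Atm probe. Leaving out single arrays gave 0 in each case. Altered DNA, 114 Mb, no longer passed with normexp (63.8 Mb), scan day (83.3 Mb), calls from 0.35 (75.9 Mb) or without mice 7 and 14 (141 Mb), and ranged from 55.1 to 146 Mb without single arrays. Noise did not pass in any of its 13 alternatives, with a difference from 0.021 to 0.11 without single arrays. Genes called by limma, 0, became 222 with array weights and 5 without mice 7 and 14, and 0 to 79 without single arrays. The sign reversed for Tcrg with normexp (-0.0015) and without mice 7 and 14 (-0.027), for Tcrb without those mice (-0.030), and for the number of segments with scan day as a block (-15.4). Without single arrays Tcrb ran from -0.11 to 0.094 and Tcrg from -0.045 to 0.047. Lost DNA no longer passed in 6 of 15 alternatives, and chromosomes 6 and 8 in 6 of 12 each. Cutting the rule at 0.35 left the sets unchanged. The cause of these changes was not tested.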
